A study of Mus musculus with 10 samples.

Results

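ETS factors are transcription factors that share the ETS domain, a winged helix that reads a purine-rich core with the letters GGAA. Several act downstream of growth factor signalling, where ERK phosphorylates them or induces their genes, and some are largely confined to epithelia. The chromatin around 10 ETS genes was examined here: *Elf3* and *Ehf*, the epithelium-restricted factors; *Ets1* and *Ets2*, which ERK phosphorylates; *Etv4* and *Etv5* of the PEA3 group; *Elf1* and *Elf4*; *Elk3*, a ternary complex factor that partners serum response factor; and *Gabpa*, the DNA-binding subunit of GABP, which controls many genes of mitochondrial proteins. They are 10 of the 18452 protein-coding genes that had a peak in any library within the gene body and 20 kb on each side. Each was followed over that window in all 10 peak lists. Peaks that touched each other across libraries were merged into 85680 sites, of which 85 lay in the windows of the 10 genes.

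Open chromatin was measured by Omni-ATAC-seq, in which the Tn5 transposase inserts adapters into accessible DNA, in live sorted cells of mouse colon organoids. The organoids came from WT mice or from VilCre *Ahr* fl/fl mice (AHR KO), in which the villin promoter drives Cre in the gut epithelium and so deletes the aryl hydrocarbon receptor there. They were kept in WENR or moved for 4 days to ENR (d4 ENR), in which cells differentiate. ENR holds EGF, Noggin and R-spondin, and WENR adds Wnt3a-conditioned medium with the p38 inhibitor SB202190, an ALK5 inhibitor and nicotinamide, so the effects of losing each cannot be told apart. There were 2 libraries of WT WENR, 3 of WT d4 ENR, 3 of AHR KO WENR and 2 of AHR KO d4 ENR. The study asked how the receptor shapes accessible chromatin during differentiation, with ETS-like factors among those considered, and the questions here are whether the regions around the ETS genes themselves differed by medium and by genotype. The labels do not tie libraries to animals or organoid lines, so p-values measure only the spread between these libraries.

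The libraries held 30354729 to 49126792 fragments and 33433 to 65308 peaks. Peaks took 63.0% to 68.6% of the coverage in the 5 WENR libraries, 14.1%, 24.4% and 30.9% in WT d4 ENR, and 33.8% and 44.2% in AHR KO d4 ENR. WT d4 ENR replicate 1 stood apart, with the fewest peaks and the lowest share. This share moved with both medium and genotype, and its part in the results below was not tested. In bulk libraries, fewer cells with an open region and a less open region in each cell cannot be told apart. The window of *Ahr* itself had 3277 and 3846 covered bases in WT WENR, 1981, 2632 and 2184 in WT d4 ENR, 6155, 6758 and 8145 in AHR KO WENR, and 4712 and 4471 in AHR KO d4 ENR. It was covered more in AHR KO in both media, and peak positions cannot show whether an exon was deleted. Promoters of 8 of 8 epithelial markers had a peak in every library, and those of 6 blood cell markers, *Ptprc* and *Spi1* among them, had one in no library. Of 6 fibroblast and muscle markers, 3 or 4 had a promoter peak in each WENR library, 2 in each WT d4 ENR library and 2 or 3 in AHR KO d4 ENR, where *Pdgfra* and *Col1a1* were called in all 10 libraries and *Col1a2* and *Dcn* in none. Of 4 endothelial markers, *Kdr* alone had a promoter peak, and only in WENR.

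Fewer bases were covered in d4 ENR than in WENR over the 10 windows together, in each genotype. Summed over the 10 windows, peaks covered 80288 and 83809 bp in WT WENR and 31571, 39228 and 47932 bp in WT d4 ENR. They covered 80666, 82687 and 89648 bp in AHR KO WENR and 64690 and 60481 bp in AHR KO d4 ENR. The groups of different media did not overlap, and within d4 ENR the lower AHR KO library still exceeded the highest of the 3 WT libraries. In the middle of the 10 genes, WT d4 ENR kept 48.8% of the mean covered bases of WT WENR, and AHR KO d4 ENR kept 79.5% of AHR KO WENR. Over all protein-coding genes with a peak these medians were 58.0% and 79.9%.

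**Figure D1:**
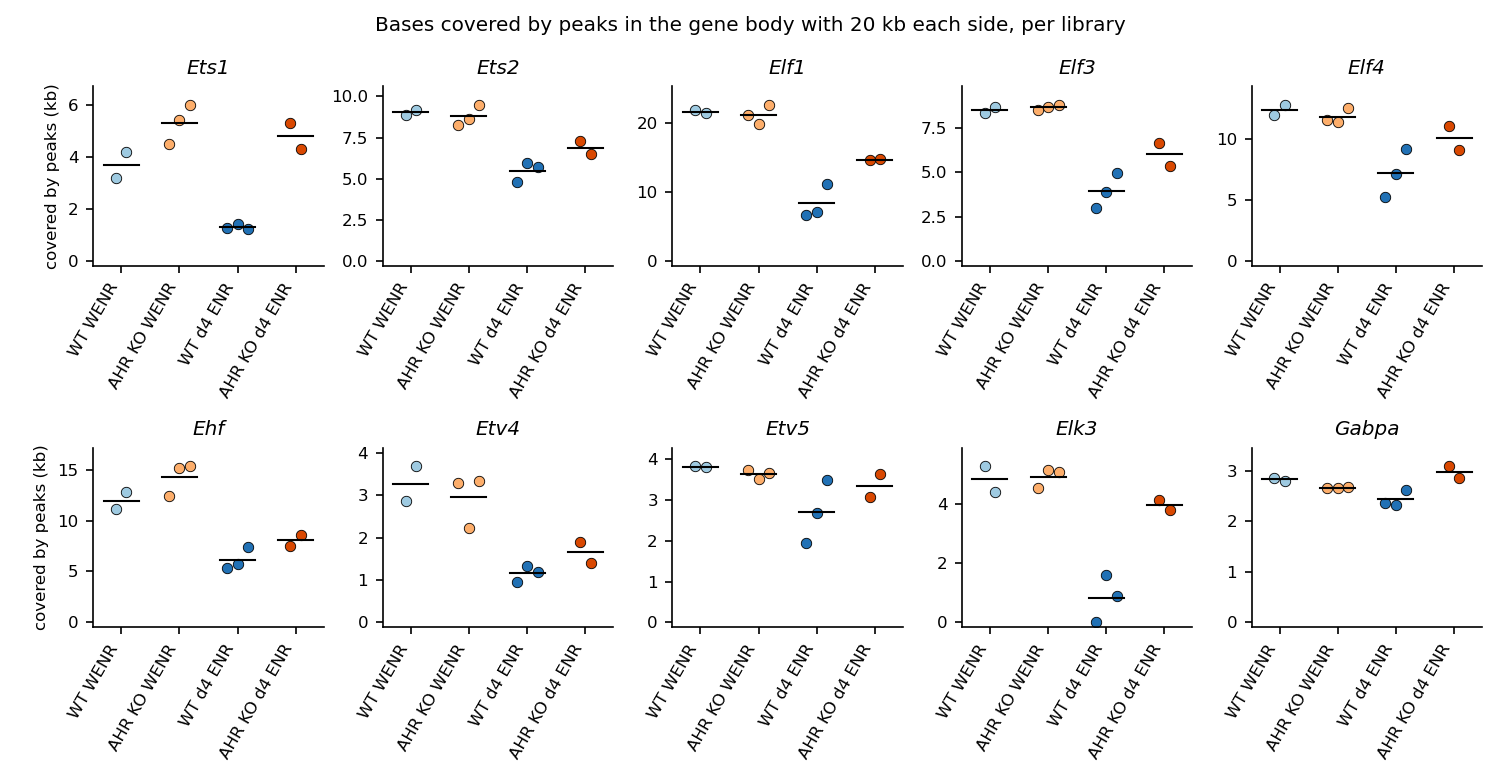
Bases covered by peaks (kb, y axis) in the window of each of the 10 ETS genes, with a dot for each library and a line at the mean of each group (x axis: WT WENR, AHR KO WENR, WT d4 ENR, AHR KO d4 ENR). *Elf1* had the widest covered length in WENR, with 19835 to 22661 bp, and *Gabpa* stayed between 2317 and 3088 bp in all 10 libraries.

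*Elf3* (chr1:135253575-135258568, minus strand; GRCm38), which intestinal cells use during their differentiation, was covered over 8388 and 8691 bp in WT WENR, 2962, 3902 and 4995 bp in WT d4 ENR, 8505, 8683 and 8828 bp in AHR KO WENR, and 6667 and 5380 bp in AHR KO d4 ENR. All d4 ENR libraries lay below all WENR libraries, and in d4 ENR AHR KO lay above WT. *Ehf* (chr2:103263433-103303278, minus strand), the other epithelial factor, was covered over 11088 and 12811 bp in WT WENR, 5305, 5709 and 7358 bp in WT d4 ENR, 12429, 15129 and 15336 bp in AHR KO WENR, and 7537 and 8628 bp in AHR KO d4 ENR. The fall of *Ehf* was similar in the 2 genotypes: d4 ENR kept 51.2% of the WENR mean in WT and 56.5% in AHR KO, the second lowest share of the 10 genes in AHR KO, just above *Etv4*.

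*Ets1* (chr9:32636221-32757820, plus strand), the founding member of the family, had 3204 and 4208 covered bases in WT WENR, 1283, 1438 and 1245 in WT d4 ENR, 4480, 5409 and 6008 in AHR KO WENR, and 5317 and 4309 in AHR KO d4 ENR. It was the one gene of the 10 in which every AHR KO library lay above every WT library in each medium. The order in d4 ENR held at 59.5% of all genes and that in WENR at 12.5%. The share with both was not counted, and the further ETS genes *Spi1*, *Etv2* and *Elk1* had both. In AHR KO the d4 ENR and WENR libraries of *Ets1* overlapped. *Ets2* (chr16:95702075-95721051, plus strand), its paralog, had 8897 and 9156 covered bases in WT WENR, 4804, 5948 and 5716 in WT d4 ENR, 8287, 8626 and 9492 in AHR KO WENR, and 7277 and 6499 in AHR KO d4 ENR. For *Ets2* the WENR libraries of the 2 genotypes overlapped.

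*Etv4* (chr11:101769742-101785371, minus strand), a PEA3 factor induced by ERK signalling, was covered over 2863 and 3682 bp in WT WENR, 952, 1341 and 1191 bp in WT d4 ENR, 3276, 2229 and 3341 bp in AHR KO WENR, and 1895 and 1408 bp in AHR KO d4 ENR. Its d4 ENR libraries were low in both genotypes. *Etv5* (chr16:22381309-22439719, minus strand), of the same group, was covered over 3833 and 3819 bp in WT WENR, 1941, 2693 and 3499 bp in WT d4 ENR, 3745, 3508 and 3674 bp in AHR KO WENR, and 3072 and 3647 bp in AHR KO d4 ENR. In AHR KO the media overlapped for *Etv5*, and the genotypes overlapped in d4 ENR.

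*Elf1* (chr14:79481194-79582494, plus strand), which is active in lymphoid and many other cells, had the most covered bases of the 10: 21895 and 21393 in WT WENR, 6698, 7134 and 11179 in WT d4 ENR, 21117, 19835 and 22661 in AHR KO WENR, and 14590 and 14824 in AHR KO d4 ENR. *Elf4* (chrX:48411046-48463132, minus strand), its relative, had 11978 and 12850 in WT WENR, 5259, 7132 and 9230 in WT d4 ENR, 11614, 11470 and 12547 in AHR KO WENR, and 11091 and 9132 in AHR KO d4 ENR. The highest WT d4 ENR library of *Elf4* lay just above the lower AHR KO one, so the genotypes overlapped there. *Elk3* (chr10:93247414-93311135, minus strand) had 5282 and 4407 covered bases in WT WENR, 0, 1614 and 907 in WT d4 ENR, 4553, 5142 and 5084 in AHR KO WENR, and 4156 and 3807 in AHR KO d4 ENR. *Elk3* had the lowest share kept in WT, 17.3%, against 80.8% in AHR KO, and no peak in the window in WT d4 ENR replicate 1. Without that library the share kept in WT was 26.0%.

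*Gabpa* (chr16:84834925-84863779, plus strand) stood apart from the other members. Its window had 2860 and 2792 covered bases in WT WENR, 2367, 2317 and 2612 in WT d4 ENR, 2660, 2656 and 2677 in AHR KO WENR, and 3088 and 2847 in AHR KO d4 ENR. In WT all d4 ENR libraries were below both WENR libraries, and in AHR KO both d4 ENR libraries were above all WENR libraries. How many of all genes had these opposite orders was not counted.

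By the test of the medium, 7 of the 10 genes were covered less in d4 ENR: *Ets2*, *Elf1*, *Elf3*, *Elf4*, *Ehf*, *Etv4* and *Elk3*. These are also the 7 in which all d4 ENR libraries lay below all WENR libraries. The covered bases in d4 ENR minus those in WENR, averaged over the genotypes, were -9902 bp at *Elf1*, -6020.5 bp at *Ehf*, -3617.5 bp at *Elf3*, -3486 bp at *Elf4*, -2725 bp at *Ets2*, -2474.5 bp at *Elk3* and -1704 bp at *Etv4*. Each of the 7 was at p = 0.02 in an exact permutation test within genotypes (2-sided), the smallest that 100 arrangements allow, and at an adjusted p of 0.0335 over all 18452 genes. *Ets1* (-1435 bp) and *Etv5* (-699 bp) had an adjusted p of 0.0585, and *Gabpa* one of 0.795. The count is close to that of all genes, of which 59.3% were covered less by the same test and 54.7% had all d4 ENR below all WENR libraries. With every list reduced to its 33433 strongest peaks, none of the 10 passed the test and the differences were smaller, with -5791 bp at *Elf1*, -3686 bp at *Ehf*, -2170.5 bp at *Elf3*, -1983.5 bp at *Elk3*, -1803.5 bp at *Ets2*, -1399 bp at *Elf4* and -566 bp at *Etv4*. The adjusted p was then 0.0500233 at *Ets2*, *Elf1*, *Elf3*, *Elf4* and *Ehf*, 0.0822 at *Etv4* and 0.134 at *Elk3*, and all d4 ENR libraries lay below all WENR libraries at 4 genes, *Ets2*, *Elf1*, *Elf4* and *Ehf*. Nor did any of the 10 pass without any 1 library, where fewer arrangements raise the smallest p.

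**Figure D2:**
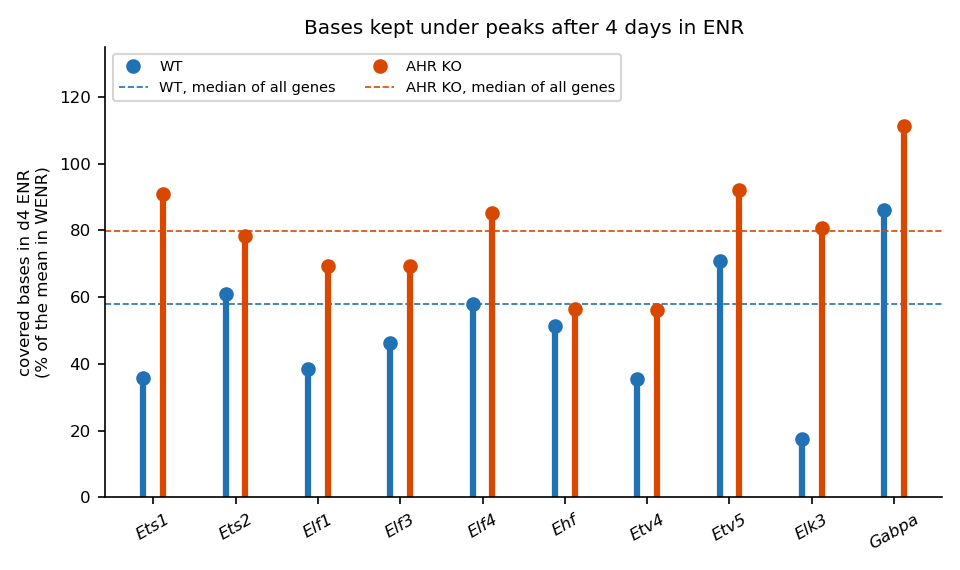
Covered bases in d4 ENR as a percent of the WENR mean of the same genotype (y axis) for each of the 10 ETS genes (x axis), in WT (blue) and AHR KO (orange), with dashed lines at the medians over all protein-coding genes. AHR KO lay above WT at each gene, from a small gap at *Ehf* (51.2% and 56.5%) to the widest at *Elk3* (17.3% and 80.8%).

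In d4 ENR, the covered bases of 8 of the 10 genes were higher in each AHR KO library than in any WT library, the exceptions being *Elf4* and *Etv5*. Of all genes 59.5% showed this order. The ratio of the AHR KO mean to the WT mean in d4 ENR was 4.74 at *Elk3*, 3.64 at *Ets1*, 1.76 at *Elf1* and 1.52 at *Elf3*, and lay between 1.22 and 1.42 at the other 6. Its median was 1.41 over the 10 genes and 1.36 over all genes. Without WT d4 ENR replicate 1 the ratio was 3.16 at *Elk3* and 3.59 at *Ets1*. In WENR the ratio was 1.43 at *Ets1*, 1.2 at *Ehf* and 0.90 to 1.02 at the other 8. *Ets1* was covered more in all AHR KO than in both WT WENR libraries, as were 12.5% of all genes, and *Etv5* and *Gabpa* were covered less in all AHR KO libraries, as were 10.5%.

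No gene passed the test of genotype over both media, so the share covered more in AHR KO was 0.0% of 18452 (1 of the 10 and 2586 of all genes were at an unadjusted p under 0.05). *Ets1* was 2542 bp higher in AHR KO, at p = 0.02 in the exact permutation test within media, the smallest possible, and an adjusted p of 0.265. The same p was reached by 1394 genes. *Ehf* was 2153.5 bp higher and *Elf3* 1101.5 bp higher, both at p = 0.06 in the same exact test and an adjusted p of 0.301. The largest difference in bases, 2965 bp at *Elf1*, had p = 0.14 in that exact test. Within 1 medium, 2 against 3 libraries allow no exact p under 0.2. An exact permutation test of the interaction passed at no gene after adjustment. *Gabpa* (p = 0.02, adjusted p = 0.317 in this exact test) was the one of the 10 at an unadjusted p under 0.05, as were 2116 of all genes.

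The 85 sites were spread unevenly. *Elf1* had 20, *Ehf* 13, *Ets2* 10, *Elf4* 9, *Ets1* and *Elf3* 8 each, *Elk3* 6, *Etv5* 5, *Etv4* 4 and *Gabpa* 2. By their midpoints or overlap, 15 were at a promoter of the gene, 42 in introns, 1 in an exon, 16 upstream and 11 downstream of it. A peak was called in all 10 libraries at 34 (40.0%), against 32.9% of all sites. Of these 34, 12 were among the 15 promoter sites. The same share was not counted over promoter sites of all genes, so this count cannot be called particular to the 10 genes. Promoter sites without a peak in every library were the site at the start of *Elk3*, which had a peak in 1 of 3 WT d4 ENR libraries, the upstream promoter of *Elf4*, which lacked one in WT d4 ENR replicate 1, and a small site at an internal start of *Etv4*.

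Another 8 sites (9.41%, and 5.46% of all sites) had a peak in each of the 5 WENR libraries but none after the change of medium. They lay at *Elf3* (3 sites), *Ets2*, *Elf1*, *Ehf*, *Etv4* and *Elk3*, and one of those at *Elf3* covers the promoter of its neighbour *Rnpep*. At *Ehf* site 1 the WENR peaks shared no base common to all 5 libraries. Some of these sites were weak in WENR. Their median percentile among the peaks was 4.49 at *Ehf* site 1 and 6.25 at *Ets2* site 3, but 46.2 at *Elf3* site 8. No site showed the reverse, a peak in each d4 ENR library and none in WENR, a pattern of 0.317% of all sites. In WT, 16 sites (18.8%) were called in both WENR libraries and no d4 ENR library, against 12.8% of all sites. In AHR KO, 9 (10.6%) were called in the 3 WENR libraries and neither d4 ENR library, against 9.49%. With lists of equal length these counts were 1, 5 and 2, beside 1.66%, 3.36% and 3.37% of all sites. A missing peak says that the caller's threshold was not reached, not that the region was closed.

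**Figure D3:**
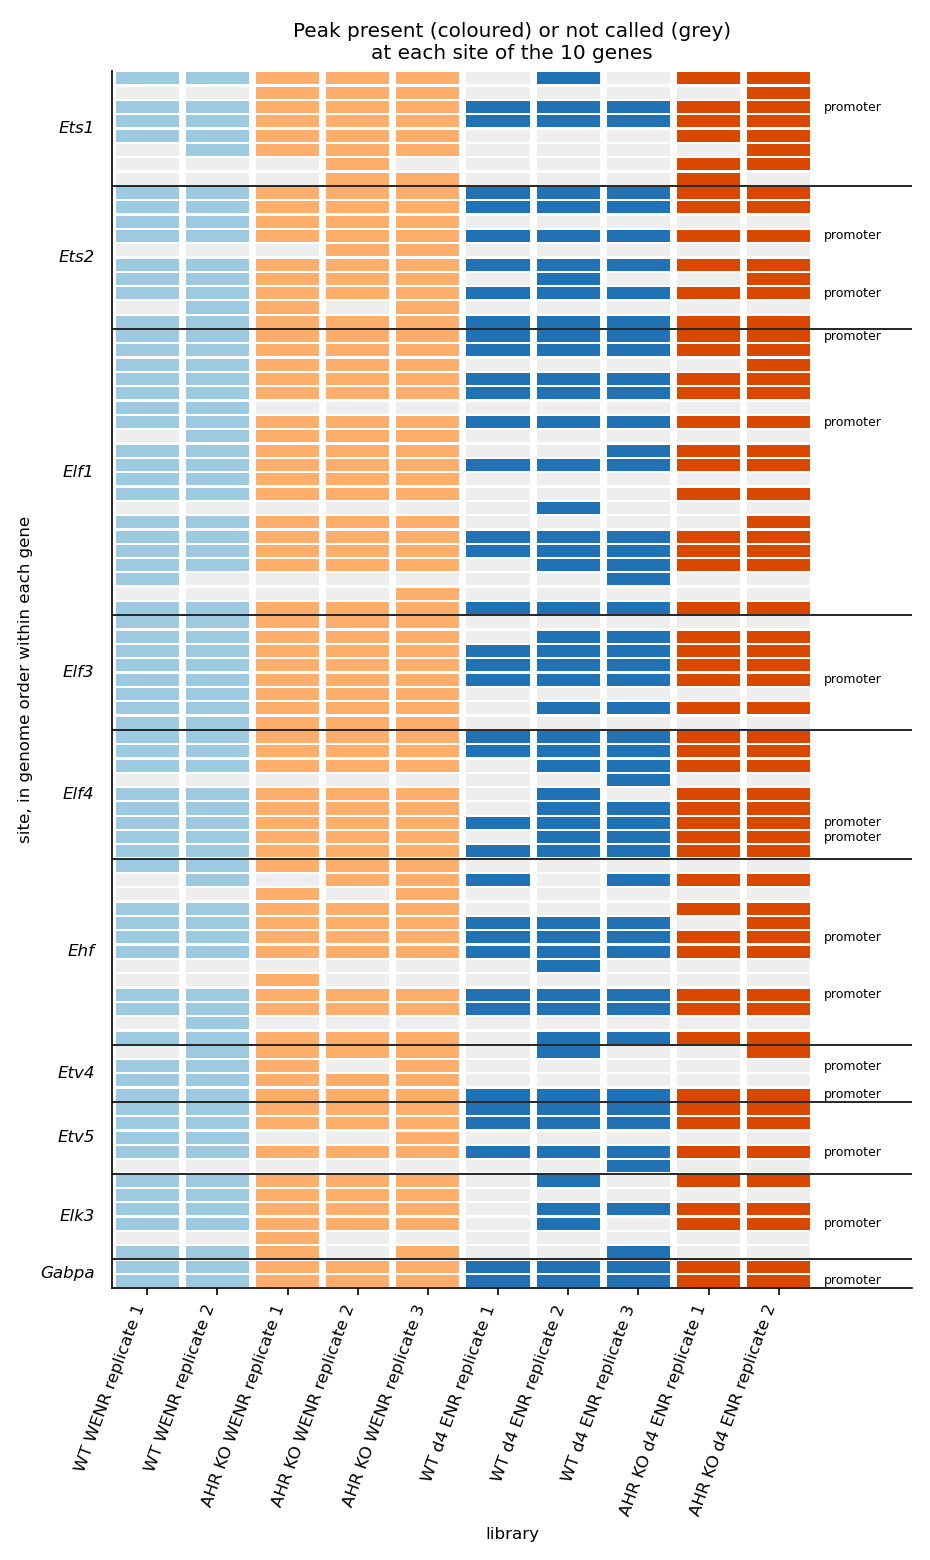
Peaks at the 85 sites (rows, grouped by gene and ordered along the chromosome) in the 10 libraries (columns, by group), with a coloured cell where the library has a peak. *Elf1* has 9 of 20 sites and *Ets2* 6 of 10 called in all 10 libraries. The WT d4 ENR columns hold 36, 51 and 49 peaks against 53 and 59 in AHR KO d4 ENR and 67 to 75 in WENR.

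In d4 ENR, 4 sites had a peak in both AHR KO libraries and in no WT library (4.71%, and 2.84% of all sites), and none had the reverse order, which 0.0864% of all sites had. *Ets1* site 5 (chr9:32711056-32712093), in its first intron and over the promoter of the transcript *Gm27240*, had a pileup, the mean number of fragments over the peak, of 24.0 and 38.3 in WT WENR, 47.0, 55.3 and 90.5 in AHR KO WENR, and 27.8 and 26.5 in AHR KO d4 ENR. *Ets1* site 7 (chr9:32731705-32732190), in the third intron, had 23.1 in AHR KO WENR replicate 2 and 15.2 and 15.1 in AHR KO d4 ENR. Both are weak beside the *Ets1* promoter, site 3 (chr9:32695527-32696755), which had 286 and 310 in WT WENR, 49.8, 66.0 and 85.4 in WT d4 ENR, 270, 383 and 360 in AHR KO WENR, and 109 and 147 in AHR KO d4 ENR. *Elf1* site 12 (chr14:79541438-79543058, second intron) had 23.9 and 27.4 in WT WENR, 22.1, 25.6 and 32.9 in AHR KO WENR, and 15.7 and 17.0 in AHR KO d4 ENR. *Ehf* site 4 (chr2:103271189-103272347, intron 6) was strong in WENR, with 77.9 and 94.0 in WT and 85.2, 88.3 and 110 in AHR KO, and weak in AHR KO d4 ENR, with 14.3 and 18.5. At these 4 sites the pileup in AHR KO d4 ENR was between 14.3 and 27.8, which ranked between the percentiles 7.71 and 45.3 of the peaks in those lists. With lists of equal length 3 sites had this order (0.824% of all sites) and 1 site the reverse (0.33% of all), and when a peak had to cover at least 50% of the site 11 had it (5.91% of all).

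In WENR the genotypes differed in presence at 1 site each way. *Ets1* site 2 (chr9:32655163-32655521), within the longest gene body of *Ets1* and 40.7 kb before its principal start, had peaks in all 3 AHR KO WENR libraries (pileup 19.3, 21.1 and 28.7) and in AHR KO d4 ENR replicate 2 (14.8), and in no WT library. This order held at 1.18% of the 85 sites and at 1.18% of all sites. *Elf1* site 6 (chr14:79510489-79510904, first intron) had peaks in both WT WENR libraries alone (87.0 and 85.9), at a fold enrichment over the local background of only 1.61 and 1.74. This order held at 1.18% of the 85 sites and 0.759% of all sites.

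The sequences of the sites whose presence differed by genotype are shown as 200 bases of the reference genome (GRCm38, from RefSeq). Each stretch is centred on the bases shared by the peaks of the libraries that called the site, and runs 5′ to 3′ on the strand of the gene. They lie at chr9:32655223-32655422 (*Ets1* site 2), chr9:32711398-32711597 (*Ets1* site 5), chr9:32731812-32732011 (*Ets1* site 7), chr14:79510656-79510855 (*Elf1* site 6), chr14:79541794-79541993 (*Elf1* site 12) and chr2:103271738-103271937 (*Ehf* site 4, minus strand). All letters are in lower case, since none of these stretches holds one of the exact motifs given below. Elsewhere in the whole sites, *Ets1* site 5 held 1 TEAD motif and *Ehf* site 4 held 1 TEAD and 2 AP-1 motifs.
Ets1 site 2: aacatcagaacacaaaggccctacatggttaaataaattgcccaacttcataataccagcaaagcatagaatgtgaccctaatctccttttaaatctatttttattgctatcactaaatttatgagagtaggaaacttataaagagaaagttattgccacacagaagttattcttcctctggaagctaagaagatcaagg
Ets1 site 5: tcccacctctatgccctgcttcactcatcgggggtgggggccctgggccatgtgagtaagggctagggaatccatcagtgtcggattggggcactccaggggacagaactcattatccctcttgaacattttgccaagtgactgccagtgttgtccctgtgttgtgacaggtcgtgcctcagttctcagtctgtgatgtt
Ets1 site 7: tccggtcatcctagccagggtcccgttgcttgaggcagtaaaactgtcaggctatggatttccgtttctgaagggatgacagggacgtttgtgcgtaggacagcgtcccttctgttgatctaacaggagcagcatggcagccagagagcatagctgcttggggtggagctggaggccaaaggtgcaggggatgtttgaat
Elf1 site 6: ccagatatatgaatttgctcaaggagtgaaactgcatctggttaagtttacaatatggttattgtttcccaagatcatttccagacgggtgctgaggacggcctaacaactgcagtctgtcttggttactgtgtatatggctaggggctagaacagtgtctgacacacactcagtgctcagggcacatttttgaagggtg
Elf1 site 12: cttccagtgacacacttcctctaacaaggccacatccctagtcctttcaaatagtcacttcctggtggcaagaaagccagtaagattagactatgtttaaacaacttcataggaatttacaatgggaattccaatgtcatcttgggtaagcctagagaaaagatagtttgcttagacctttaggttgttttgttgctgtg
Ehf site 4: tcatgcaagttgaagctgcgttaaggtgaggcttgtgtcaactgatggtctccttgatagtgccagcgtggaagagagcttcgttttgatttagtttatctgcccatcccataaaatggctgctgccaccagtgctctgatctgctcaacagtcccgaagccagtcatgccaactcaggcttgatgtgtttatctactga

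The motifs were searched on both strands of 300 bases at every site: CCGGAAGT for ETS factors, CATTCC for TEAD, TGANTCA for AP-1 and TNGCGTG for AHR:ARNT. Each window was centred on the bases shared by the peaks of the libraries that called the site. Where they shared none it was centred on the site itself. The ETS letters had to match in full, so other sequences with a GGAA core were not counted. The ETS motif was in 1 of the 85 windows (1.18%) and in 1.27% of the windows of all sites. TEAD and AP-1 motifs were in 22 windows each (25.9%), against 18.9% and 22.1% of all sites, and AHR:ARNT in 3 (3.53%) against 3.81%. The one ETS motif in the 85 windows was in *Elf1* site 3 (chr14:79494134-79495893), an intron 1 site. That site had peaks in the 5 WENR libraries (24.1 and 28.0 in WT, 19.1, 22.3 and 22.7 in AHR KO), in AHR KO d4 ENR replicate 2 (12.2) and in no WT d4 ENR library. Beyond these windows, whole sites held an ETS motif at *Elf1* site 20, *Elf4* site 2 and the *Gabpa* promoter. *Elf1* site 3 is shown at chr14:79494406-79494605, with the ETS and AP-1 motifs, which do not overlap, in capitals. *Ets2* site 8 (chr16:95716302-95716501) and *Ehf* site 7 (chr2:103294264-103294463, minus strand) are shown as the sites with the largest falls between the media, and these stretches hold no motif. Outside these stretches, *Ets2* site 8 held 1 AP-1 and 1 TEAD motif and *Ehf* site 7 held 3 AP-1 and 2 TEAD motifs.
Elf1 site 3: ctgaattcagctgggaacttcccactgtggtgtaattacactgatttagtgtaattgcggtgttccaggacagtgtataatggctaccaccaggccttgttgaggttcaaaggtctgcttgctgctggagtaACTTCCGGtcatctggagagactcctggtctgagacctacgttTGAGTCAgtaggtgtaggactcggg
Ets2 site 8: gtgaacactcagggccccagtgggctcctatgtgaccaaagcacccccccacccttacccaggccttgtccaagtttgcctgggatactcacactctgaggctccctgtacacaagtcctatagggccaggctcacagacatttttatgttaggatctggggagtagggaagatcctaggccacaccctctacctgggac
Ehf site 7: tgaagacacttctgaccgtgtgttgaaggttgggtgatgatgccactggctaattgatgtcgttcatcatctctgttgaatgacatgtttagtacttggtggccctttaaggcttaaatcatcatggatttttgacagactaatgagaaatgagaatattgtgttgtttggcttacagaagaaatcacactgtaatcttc

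The RefSeq promoter table (GRCm38.p6; 250 bases before to 50 after each start) matched 7 of the 10 genes with 10 promoters, and *Ets1*, *Ehf* and *Etv4* had no entry. The ETS and AHR:ARNT motifs were in none of the 10, against 3.89% and 5.07% of 32851 promoters. The AP-1 motif was in 2 (7.81% of all), 23 bases before an internal start of *Elf1* and 39 bases before the start of *Elf4*, and the TEAD motif in 1 (14.7% of all), 235 bases before the RefSeq start of *Elf3*, which lies inside the GENCODE gene. These 3 are printed without transcribed bases, with the motif in capitals: chr14:79515424-79515673 for *Elf1*, chr1:135258569-135258722 for *Elf3* and chrX:48463133-48463382 for *Elf4*, the last 2 on the minus strand. Each lies in a promoter site described here. At *Elf3* this site (chr1:135256261-135259353) had a pileup of 436 and 453 in WT WENR, 99.1, 105 and 131 in WT d4 ENR, 361, 428 and 453 in AHR KO WENR, and 178 and 199 in AHR KO d4 ENR. At *Elf1* site 7 and *Elf4* site 8 the WENR libraries were again highest and the WT d4 ENR libraries lowest, with no peak for *Elf4* in WT d4 ENR replicate 1. These pileups are unscaled. Centred per library as described below, the log2 changes from WENR to d4 ENR at *Elf3* were 0.07 in WT and 0.08 in AHR KO. At *Elf1* site 7 they were 0.02 and 0.06, and none of these passed the limma test.
Elf1 promoter: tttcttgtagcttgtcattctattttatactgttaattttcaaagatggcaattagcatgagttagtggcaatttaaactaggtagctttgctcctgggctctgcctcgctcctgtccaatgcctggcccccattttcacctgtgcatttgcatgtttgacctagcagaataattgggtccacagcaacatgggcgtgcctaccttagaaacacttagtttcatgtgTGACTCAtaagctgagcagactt
Elf3 promoter: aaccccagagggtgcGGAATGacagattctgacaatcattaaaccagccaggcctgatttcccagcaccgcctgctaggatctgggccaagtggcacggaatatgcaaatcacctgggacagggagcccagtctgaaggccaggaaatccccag
Elf4 promoter: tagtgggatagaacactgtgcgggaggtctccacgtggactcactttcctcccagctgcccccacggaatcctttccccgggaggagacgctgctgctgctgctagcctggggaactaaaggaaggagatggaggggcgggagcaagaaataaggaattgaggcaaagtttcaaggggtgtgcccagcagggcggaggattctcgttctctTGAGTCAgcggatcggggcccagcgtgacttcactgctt

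At the 34 sites with a peak in every library, each library gave a pileup, averaged over its own called bases, which differ in extent between libraries. The median pileup of all such sites, per 1000000 fragments and on the log2 scale, was 1.42 to 1.54 in WENR, 0.48 and 0.78 in AHR KO d4 ENR, and -0.53, -0.06 and 0.23 in WT d4 ENR, so log2 pileups were centred on the median of each library. A change on this scale is relative to the 28205 sites called everywhere, and was tested with limma over all of them. In WT, 2 of the 34 rose and 8 fell from WENR to d4 ENR, against 25.9% and 13.7% of all sites. In AHR KO, 2 rose and 7 fell, against 18.7% and 11.0%. Scaled by depth alone, without centring, 33 of the 34 fell in WT and 31 in AHR KO and none rose, while of all 28205 sites 26295 and 21331 fell. By fold enrichment over the local background 16 of the 34 rose and 2 fell in WT and 4 rose in AHR KO, while of all sites 7852 rose and 4091 fell in WT and 2570 rose and 2013 fell in AHR KO. The count in WT was 6 without WT WENR replicate 1, and that in AHR KO 4 without AHR KO d4 ENR replicate 1 and 5 without AHR KO WENR replicate 2.

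The 7 sites called in both genotypes were at *Ehf*, *Ets2*, *Elf1*, *Etv4* and *Gabpa*. *Ehf* site 7 (chr2:103293348-103296080), a broad region in the first intron, had a pileup of 247 and 231 in WT WENR, 17.0, 16.5 and 25.6 in WT d4 ENR, 190, 251 and 252 in AHR KO WENR, and 50.5 and 49.8 in AHR KO d4 ENR. Averaged over the genotypes it fell by 1.27 on the centred log2 scale (SE 0.10, limma adjusted p = 1.44e-07), and it did not fall by fold enrichment, where the change was 0.10. The fall was 1.55 (SE 0.14) in WT and 0.99 (SE 0.14) in AHR KO. *Ehf* site 11, upstream of the gene, fell by 0.59 (SE 0.11, adjusted p = 0.000377). The promoter sites of *Ehf* fell in WT alone by this test, site 6 (chr2:103282675-103287432) by 0.74 (adjusted p = 0.000211) and site 10 (chr2:103301898-103304055) by 0.51 (adjusted p = 0.0154). In AHR KO their values were -0.30 and -0.28 (adjusted p = 0.0693 and 0.19), and no difference between the genotypes passed the interaction test.

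At *Ets2*, site 8 (chr16:95715899-95717022), at an internal transcription start near the 3′ end of the gene, had a pileup of 153 and 153 in WT WENR, 14.9, 22.0 and 24.6 in WT d4 ENR, 175, 177 and 202 in AHR KO WENR, and 30.1 and 44.3 in AHR KO d4 ENR. It fell by 0.99 on the centred log2 scale (SE 0.10, limma adjusted p = 1.60e-06), with a change by fold enrichment of 0.065. *Ets2* site 6, in the second intron, fell by 0.57 (SE 0.09, adjusted p = 5.37e-05) on the centred scale and rose by 0.32 by fold enrichment (adjusted p = 0.00574). The main *Ets2* promoter, site 4 (chr16:95699561-95703115), fell by 0.17 averaged over the genotypes (SE 0.07, adjusted p = 0.049997), with -0.25 in WT (adjusted p = 0.055) and -0.10 in AHR KO, neither past the threshold. *Ets2* site 10, downstream of the gene, fell by 0.48 in AHR KO alone (adjusted p = 0.042), with -0.19 in WT. The promoter of *Etv4*, site 4 (chr11:101783780-101785772), had 285 and 266 in WT WENR, 29.3, 39.8 and 54.7 in WT d4 ENR, 242, 300 and 319 in AHR KO WENR, and 88.1 and 102 in AHR KO d4 ENR. It fell by 0.55 (SE 0.08, adjusted p = 5.08e-05), and *Elf1* site 2, in the first intron, by 0.65 (SE 0.14, adjusted p = 0.00104). By fold enrichment their changes were 0.061 and 0.054.

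*Gabpa* site 1 (chr16:84824441-84825599), 10.1 kb upstream of *Gabpa* and within an exon of the neighbouring *Jam2*, moved the other way. Its pileup was 37.4 and 37.3 in WT WENR, 17.7, 16.5 and 26.6 in WT d4 ENR, 28.2, 33.7 and 27.8 in AHR KO WENR, and 31.8 and 32.1 in AHR KO d4 ENR. Relative to the other shared sites it rose by 1.23 (SE 0.13, limma adjusted p = 1.68e-06). Scaled by depth alone, its change averaged over the genotypes was 0.01. That average joins a fall in WT and a rise in AHR KO, while most sites fell in both. The *Gabpa* promoter, site 2 (chr16:84834293-84836379), which also covers the promoter of *Atp5j*, had 351 and 366 in WT WENR, 89.6, 71.6 and 98.3 in WT d4 ENR, 319, 384 and 377 in AHR KO WENR, and 146 and 170 in AHR KO d4 ENR. Its centred changes were 0.01 in WT and 0.02 in AHR KO. The other 2 sites that rose by the centred test rose in 1 genotype each: *Ets1* site 4 in WT (0.58, adjusted p = 0.027) and *Elf1* site 4 in AHR KO (0.68, adjusted p = 0.00412). Scaled by depth alone neither was higher in d4 ENR by the test.

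**Figure D4:**
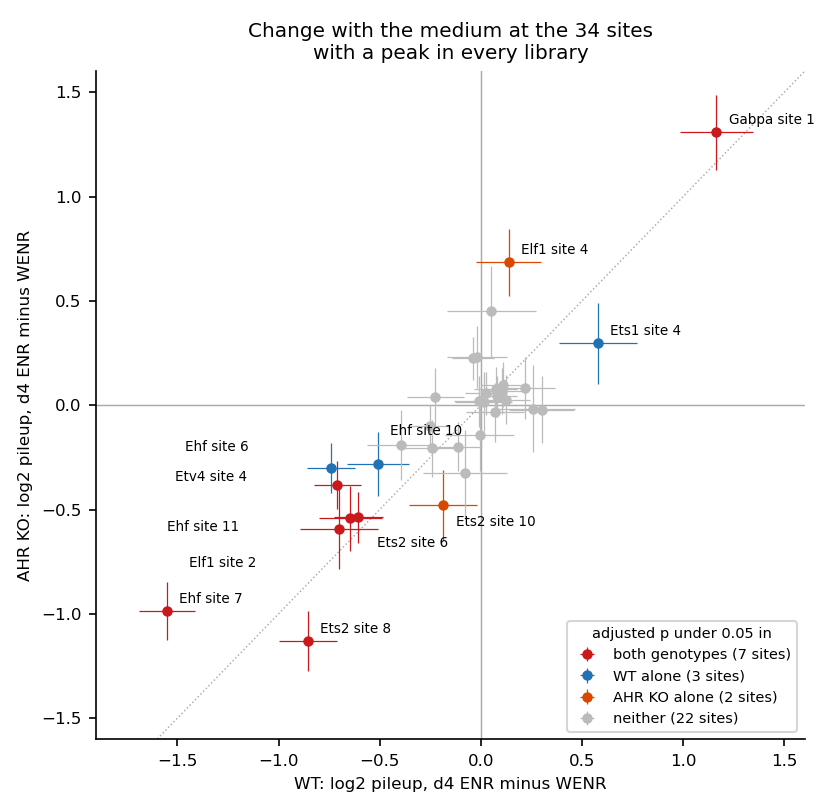
Change from WENR to d4 ENR in centred log2 pileup at the 34 sites with a peak in every library, in WT (x axis) and AHR KO (y axis), with bars for the SE and colours for sites called in both genotypes (7), in WT alone (3), in AHR KO alone (2) or in neither (22). *Gabpa* site 1 stands alone at the upper right and *Ehf* site 7 and *Ets2* site 8 at the lower left.

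Between the genotypes, none of the 34 sites passed the limma test in d4 ENR, where 0.425% of all sites were higher and 0.624% lower in AHR KO. There 7 of the 34 and 5816 of all 28205 sites were at an unadjusted p under 0.05. None passed in WENR either, where 0.0213% of all sites were higher and 0.11% lower and 2 of the 34 and 2063 of all sites were at an unadjusted p under 0.05. The interaction was called at 0.0% of all sites in either direction, with 3 of the 34 and 3819 of all sites at an unadjusted p under 0.05. The lowest adjusted p in d4 ENR, 0.0679, was at *Ehf* site 7, where AHR KO was 0.52 higher (SE 0.14). *Ets1* site 4 (chr9:32705585-32706585, first intron) had the largest value in WENR, 0.84 higher in AHR KO (SE 0.19, adjusted p = 0.133). Its pileup was 34.7 and 46.4 in WT WENR, 12.2, 13.3 and 17.6 in WT d4 ENR, 52.7, 70.6 and 96.0 in AHR KO WENR, and 37.9 and 37.7 in AHR KO d4 ENR, with every AHR KO library above every WT library of the same medium.

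These counts rested on single WT libraries and on the scale. Without WT d4 ENR replicate 1, 42 sites of the 10 genes among 35321 in all had a peak in every remaining library, and 3 of the 42 differed in d4 ENR: *Ehf* site 7 (0.61 higher in AHR KO, limma adjusted p = 0.0148), the *Etv4* promoter (0.35 higher, adjusted p = 0.0465) and *Elf1* site 10 (-0.53, adjusted p = 0.0234), with 1536 of all sites higher and 1157 lower. *Ets1* site 4 then differed in WENR (0.84 higher, adjusted p = 0.0456). Without WT d4 ENR replicate 3, 5 of 34 sites differed: *Ehf* sites 6 and 7, the *Etv4* promoter and *Elf1* site 4 were higher and *Ets2* site 10 lower, with 765 of 28309 sites in all higher and 1559 lower. Scaled by depth alone, 31 of the 34 were higher in AHR KO in d4 ENR, as were 20604 of all 28205 sites.

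**Figure D5:**
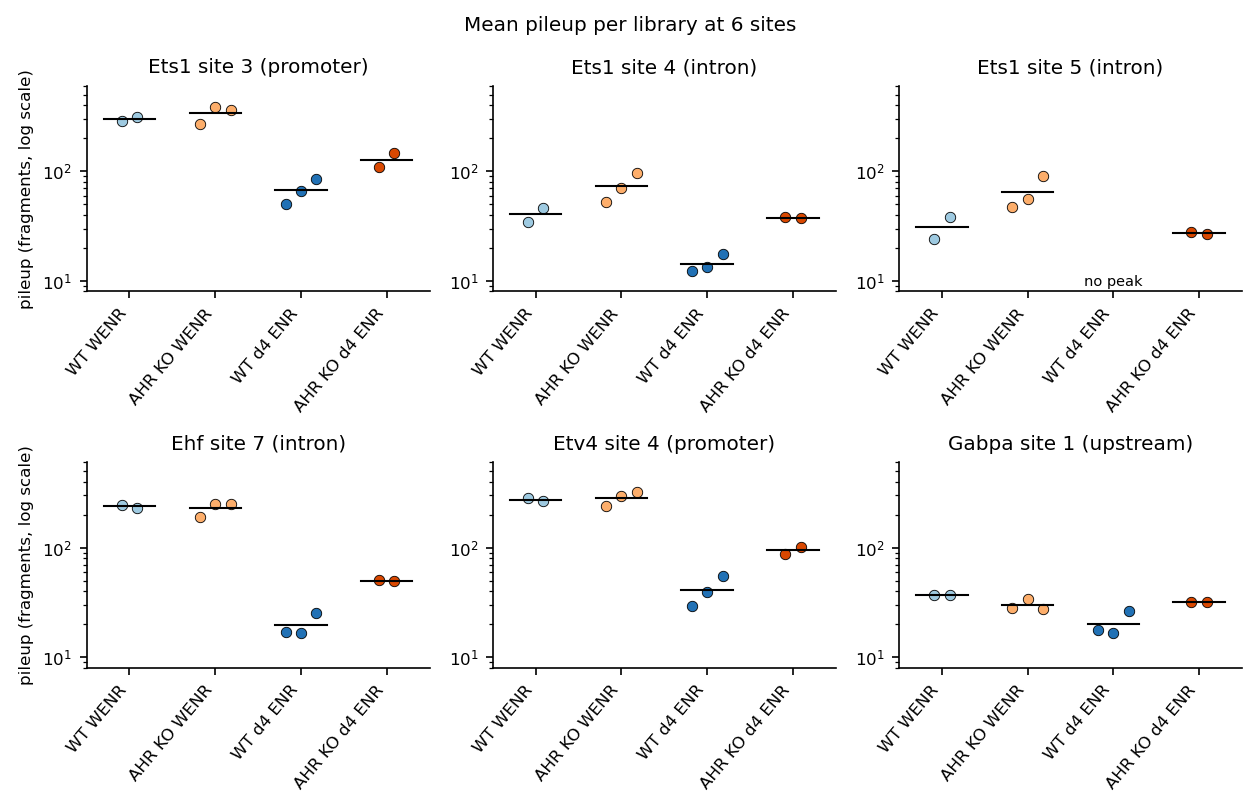
Pileup (mean fragments over the peak, log axis, not scaled for depth) in each library at *Ets1* sites 3, 4 and 5, *Ehf* site 7, *Etv4* site 4 and *Gabpa* site 1, by group. At *Ets1* site 4 the AHR KO dots lie above the WT dots in both media, an order that the median pileup of all shared sites had in d4 ENR. At *Gabpa* site 1 all 10 values lie between 16.5 and 37.4.

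Other genes of the family moved to a like extent. Of 16 further ETS genes, 10 passed the test of the medium, all covered less in d4 ENR, as were 59.3% of all genes. For 10 the AHR KO libraries exceeded every WT library in d4 ENR, as for 59.5% of all genes. In WT d4 ENR they kept a median of 54.6% of their WENR mean and in AHR KO 75.7%, beside 58.0% and 79.9% over all genes. *Spi1*, *Etv2* and *Elk1* were covered more in all AHR KO than in both WT WENR libraries (12.5% of all genes) and *Etv3* less (10.5%). Like *Ets1*, *Spi1*, *Etv2* and *Elk1* were also covered more in each AHR KO library than in any WT library in d4 ENR. Factors best known from blood and vessel cells differed among themselves. *Fli1* (252 bp in 1 library) and *Spic* (457 bp in 1 library) had almost no covered base. *Erg* had 5088 and 3727 bp in WT WENR, 200, 0 and 179 bp in WT d4 ENR, 5371, 3605 and 4561 bp in AHR KO WENR, and 1077 and 1064 bp in AHR KO d4 ENR. *Spi1* had 3467 and 3434 bp in WT WENR, 1238, 1519 and 1723 bp in WT d4 ENR, 3483, 3645 and 3714 bp in AHR KO WENR, and 2599 and 2071 bp in AHR KO d4 ENR, and no peak at its promoter. Of 9 partners and feedback genes of ETS factors, 8 were covered less in d4 ENR by the test, beside 59.3% of all genes. The exception was *Gabpb1*, which encodes the subunit that joins GABPA. *Gabpb1* had 1551 and 1753 covered bases in WT WENR, 1550, 1606 and 1879 in WT d4 ENR, 1757, 1494 and 1597 in AHR KO WENR, and 2034 and 2078 in AHR KO d4 ENR. *Spry1* and *Spry4*, inhibitors of receptor signalling, were covered less in all AHR KO than in both WT WENR libraries (10.5% of all genes). In d4 ENR 7 of the 9 were covered more in each AHR KO library than in any WT library (59.5% of all genes).

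The genes whose covered bases ran most like the sum of the 10 over the 10 libraries were *0610010K14Rik*, *Gpat4* and *Actn4*, each with a Pearson r of 0.996. The libraries share their depth and share of coverage in peaks, and 19.7% of 18430 genes had an r over 0.95.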

How the data were processed

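Omni-ATAC-seq peak lists of 10 mouse colon organoid libraries were used, grouped by the genotype, medium and replicate number in their labels. Within nf-core/atacseq, the authors trimmed and aligned the reads (BWA, GRCm38) and ran MACS 2.2.7.1 on single libraries for broad peaks (paired-end, no control, all duplicates that reached the caller kept, broad q value 0.1, narrow q value 0.05, background window 10000 bp). The deposited lists hold the pileup of each peak, which is its coverage signal in fragments without scaling for depth, the fold enrichment over the local background, and the −log10 of p and q values. Fragment numbers come from the file headers and set the precision of a pileup. Footprints and counts of reads were not used here, and the DESeq2 test of the study's methods was not repeated.

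Bases covered by peaks were summed over each gene body (GENCODE M21) with 20 kb on each side. Media were permuted within genotypes and genotypes within media (exact, 2-sided, 100 arrangements, smallest p 0.02), with Benjamini-Hochberg adjustment over 18452 genes. Peaks sharing at least 1 bp were merged into sites, placed at a promoter when they overlapped 1 kb before to 100 bp after a start. Pileups, averaged by peak length, were compared as log2 values centred per library with limma 3.58.1 (R 4.3.3, trend) over 28205 sites called in all libraries, with adjusted p under 0.05. No pseudocount was added. Presence of peaks was described without a test. Python 3.11.15, numpy 2.4.6, pandas 2.3.3, scipy 1.17.1 and matplotlib 3.10.9 were used, and both tests were tried on simulated data.

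All 10 genes were named, with sites at their promoters, sites that differed by genotype, and up to 2 sites per gene with the largest change of medium among those called in both genotypes. *Elf3* and *Elk3* sites lost in d4 ENR, the sites with motifs and the shared sites called in 1 genotype were singled out after their values were seen. The genes, lists and tests were chosen with earlier results of these data known. Deviations of libraries with the same replicate number correlated at -0.15 to 0.33, and at 0.04 to 0.33 between the genotypes within a medium. Not every pair was over 0.1, so the numbers were not taken to pair libraries. Alternatives were lists cut to equal length, a −log10 q of at least 5, narrower windows, other scales, a replicate block, sites called in 2 libraries of every group, and each library left out.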

Additional observations from a re-analysis of the deposited data

Results flagged for a closer look

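The covered bases of *Gabpa* moved in opposite directions in the 2 genotypes. From WENR to d4 ENR the mean fell by 394 bp in WT and was 303 bp higher in AHR KO, and every WT d4 ENR library lay below every WT WENR library while both AHR KO d4 ENR libraries lay above every AHR KO WENR library. AHR KO minus WT was 535.5 bp in d4 ENR and -162 bp in WENR. The difference of the 2 changes, 697 bp, had p = 0.02 in the exact permutation test, the smallest it can give, and an adjusted p of 0.317 over all genes, so it did not pass. The smallest p was reached by 1163 of 18452 genes in this test, and the share with such opposite orders was not counted. In AHR KO d4 ENR peaks took 33.8% and 44.2% of the coverage, against 14.1% to 30.9% in WT d4 ENR, and the part of this in the *Gabpa* values was not tested.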

How the results depend on the processing

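Of 280 alternative values of the medium and genotype effects of the 10 genes, 271 kept their direction, among them all 98 for the 7 genes covered less in d4 ENR, and 100 of 105 alternative values of the 7 sites called in both genotypes did so. The cause of the changes below was not tested unless named. With lists of equal length, 4 genes instead of 7 had all d4 ENR below all WENR libraries, 2 (*Ets1* and *Elf3*) instead of 1 were covered more in all AHR KO WENR libraries, and 0 passed the test of the medium. That test had 0 calls also without any 1 library (0 to 0), where fewer arrangements raise the smallest p. In paired fits with the replicate number as a block, which leave fewer arrangements still, it had 0 calls, limma called 10 sites for the medium in WT (1 higher, 9 lower) and 9 in AHR KO (2 higher, 7 lower), and no genotype call was made. The replicate numbers carry no stated pairing. Leaving out a library gave 1 to 3 genes covered more in AHR KO WENR, with 3 (*Ets1*, *Elf3* and *Ehf*) without WT WENR replicate 2 and 2 each without WT WENR replicate 1 (*Ets1* and *Elk3*) or AHR KO WENR replicate 1 (*Ets1* and *Ehf*).

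Limma called 0 sites between genotypes in d4 ENR, 31 when scaled by depth without centring, 1 by fold enrichment (*Elf1* site 10, lower), 1 by summed coverage (*Elf1* site 2, higher) and 0 to 5 without a library. In WENR it called 0 to 1 without a library. For the media in WT it called 33 sites when scaled by depth, 18 by fold enrichment and 6 to 14 without a library, and in AHR KO 31, 4 and 4 to 13. The interaction called 8 sites when scaled by depth and 0 on the other scales.

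The sign of small effects turned. The medium effect of *Gabpa* was 268 bp with lists of equal length and -106 to 14.8 bp without a library. The genotype effect of *Etv4* was -7.5 bp with the block, -58.2 bp over the gene body alone and -122 to 288 bp without a library, and that of *Gabpa* was -126 bp with lists of equal length and -16.8 bp over the gene body. By fold enrichment the log2 change was 0.10 at *Ehf* site 7, 0.061 at *Etv4* site 4, 0.054 at *Elf1* site 2, 0.32 at *Ets2* site 6 and 0.065 at *Ets2* site 8. The WT d4 ENR libraries had the lowest shares of coverage in peaks and fewer fragments than those of WENR. This limits every statement that a peak was absent there.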
